A study of Neurospora crassa with 42 samples.

Results

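The 6 libraries of Neurospora crassa strains that lack a cellulase activator and were kept on cellulose were set against the 3 libraries of wild type kept without carbon, 9 of the 42 libraries of the study. They were taken by their strain, medium and time labels: Δclr-1 on Avicel (3 libraries), Δclr-2 on Avicel (3) and starved wild type (3), all sampled 4 h after transfer. Wild type on Avicel (3 libraries, 4 h) is given beside them, and shares its starved controls with every comparison of the mutants. Starved Δclr-3 and starved Pccg1-clr-2 at 4 h (3 libraries each) also entered the fit. There they share in the filter on low values and in the estimate of the spread. Wild type is FGSC 2489, a laboratory strain, and the mutants carry a deletion of clr-1 or of clr-2; the labels do not say whether a mutant is 1 isolate. All cultures began as conidia grown in 100 ml of Vogel's medium with 2% sucrose at 25 °C and 200 rpm under constant light for 16 h. They were washed and moved to the same medium with 2% Avicel, a microcrystalline cellulose, or with no carbon source. The question is which part of the transcript response to cellulose is seen without CLR-1 or without CLR-2. Strain and medium both differ between the mutants on Avicel and starved wild type, and no starved Δclr-1 or Δclr-2 library was analysed here, so what the deletion does and what Avicel does cannot be told apart.

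CLR-1 and CLR-2 are zinc binuclear cluster transcription factors that N. crassa needs to switch on its cellulase genes when cellulose is the carbon source. CLR-1 acts first and promotes clr-2, and CLR-2 drives most cellulase genes. Xylan, the hemicellulose that accompanies cellulose in plant walls, has its own activator, XLR-1, which controls xylanases and the enzymes that take xylose into central metabolism.

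The labels fitted the deleted genes. The clr-1 gene (NCU07705) was at 1.95, 1.55 and 1.62 FPKM in Δclr-1, against 28.5, 28.9 and 36.6 in starved wild type, and clr-2 (NCU08042) was at 0.0152, 0.0197 and 0 in Δclr-2, against 1.62, 3.65 and 1.15 in starved wild type. FPKM scales fragments to transcript length and library size. Both genes were left out of every count below. The implied depth, read from the width of the FPKM bounds, was 12.1 to 16.9 M fragments (M, mega) in the mutants and 17.2 to 40.0 M in starved wild type. Starved wild type replicate 2, Δclr-1 replicate 1 and Δclr-2 replicate 1 stood apart from their own groups, and wild type Avicel replicate 1 was both the shallowest library (5.18 M) and the one least like its group. Markers of growing hyphae (cat-3, chs-1 and do, also called fks) summed to 279.8 to 339 FPKM in the mutants and 269 to 284 in starved wild type, and none was at 0 in any library; the labels call every sample mycelia. The loci of gh10-2, xr, cry, con-6, cdt-1 and NCU05068 overlap a neighbouring gene, and no source used here gives the strandedness of the libraries, so their values may hold reads of that neighbour.

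A small set of genes was higher in the mutants on Avicel than in starved wild type. Of the 10 largest increases called in each strain without overlap of libraries, 4 were in the hemicellulose and pentose lists (gh10-2, xr, gh11-2 and NCU01900), 2 in the transporter lists (cdt-2 and NCU06138) and 4 in no list. With the mean of the 2 strains against starved wild type, limma called 214 of 8269 genes (2.59%), 121 higher (1.46%) and 93 lower (1.12%), a call being a Benjamini-Hochberg adjusted p under 0.05 with a change of at least 2-fold. In Δclr-1 alone 164 were called (1.98%), 109 higher (1.32%) and 55 lower (0.665%). In Δclr-2 alone 146 were called (1.77%), 112 higher (1.35%) and 34 lower (0.411%). The median log2 change over all genes was -0.06 for the mean, -0.07 for Δclr-1 and -0.04 for Δclr-2. With the replicate number as a block over all 6 groups, the Δclr-2 counts became 126 higher and 107 lower. The labels name no batch, and same-numbered libraries of Δclr-2 and starved wild type deviated together only weakly (r = 0.120, 0.164 and 0.123). Rescaling by the median ratio gave 132 higher and 63 lower for the mean and 123 and 37 for Δclr-1. Leaving out the 3 libraries that stood apart gave 147 higher and 155 lower. The lower count was 57 without Δclr-1 replicate 2, 48 without Δclr-2 replicate 2 and 43 without starved replicate 3, while the higher count stayed within 106 to 147 whichever library was left out. In wild type on Avicel against the same starved libraries 869 genes were called (10.5%), of which 250 were higher (3.02%) and 619 lower (7.49%), with the median gene at -0.39; rescaling turned this into 398 up and 187 down.

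**Figure D1:**
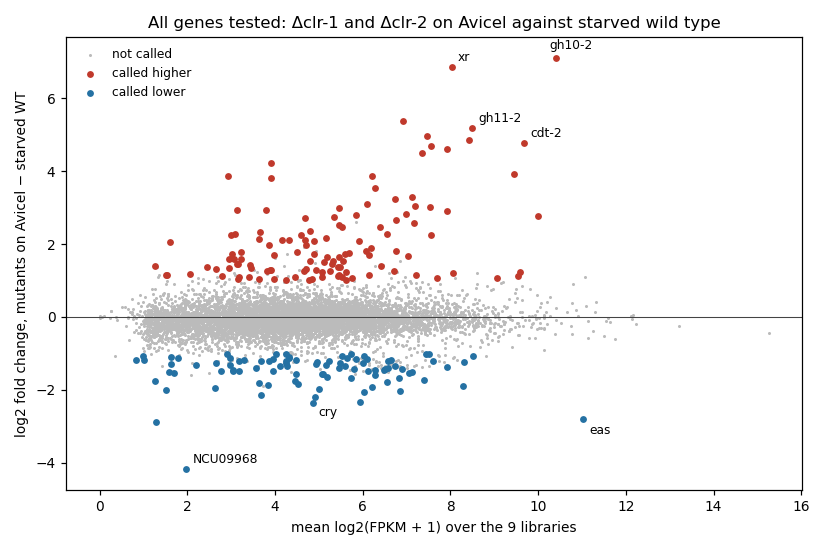
Each point is 1 of the 8269 genes tested, with its mean log2(FPKM + 1) over the 9 libraries on the x axis and the log2 fold change of the mutants on Avicel (mean of the 2 strains) minus starved wild type on the y axis. The 121 genes called higher reach 7.11 (gh10-2), while the 93 called lower lie above -3 apart from NCU09968.

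The largest increase was that of gh10-2 (NCU08189; chromosome III, 4598536 to 4599913 on build NC12), which encodes a family 10 xylanase that cuts the xylan backbone. It was at 6975, 7504 and 8101 FPKM in Δclr-1 and 9134, 5334 and 5563 in Δclr-2, against 40.3, 30.5 and 98.2 in starved wild type. All 6 mutant libraries lay far above the 3 starved ones, and limma put the log2 change at 7.11 ± 0.50 (standard error; adjusted p = 4.88e-07). The family 11 xylanase gene gh11-2 (NCU07225; chromosome V, 6198659 to 6199980) was at 1489, 1871 and 1800.4 FPKM in Δclr-1 and 1169.5, 664 and 765 in Δclr-2, against 22.7, 32.7 and 44.0 in starved wild type. Here too no mutant library overlapped a starved one (log2 change 5.19 ± 0.26, adjusted p = 1.24e-08). The β-xylosidase gene gh3-8 (NCU00709), whose enzyme trims xylose from xylan fragments, was at 50.7, 34.5 and 38.9 FPKM in Δclr-1 and 54.4, 20.7 and 23.9 in Δclr-2, against 0.989, 1.28 and 2.75 in starved wild type, a log2 change of 3.81 ± 0.46 (adjusted p = 9.75e-05).

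Of 20 hemicellulose-degrading enzymes tested, 9 were called higher and 0 lower in the mean of the mutants, beside 1.46% and 1.12% of all genes. Δclr-1 had 11 higher and 0 lower, and Δclr-2 had 9 higher and 1 lower. The list's median log2 change was 0.53 for the mean, 1.45 for Δclr-1 and 0.33 for Δclr-2. In wild type on Avicel it was 4.71, and 19 of the 20 were called higher. NCU08412, described with the strain differences, was called higher in Δclr-1 and lower in Δclr-2. Besides the genes above, gh3-7 (log2 change 2.29 ± 0.21), NCU01900 (4.60 ± 0.48), NCU04870 (4.23 ± 0.23), NCU02343 (3.93 ± 0.51), NCU09652 (2.89 ± 0.38) and NCU09924 (1.31 ± 0.20) rose. These 5 identifiers carry no symbol in the reference annotation, and were put in this list from background knowledge. Members that were not called include gh11-1, a further family 11 xylanase gene, with a log2 change of 0.50 in the mutants and 6.61 in wild type on Avicel. Likewise the log2 change of gh10-3 was 0.31 in the mutants and 3.33 in wild type on Avicel, and that of gh2-1 was 0.39 and 4.06. These members were named after their values were seen.

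A further family 10 xylanase gene was far below gh10-2 in the mutants. The gh10-1 gene (NCU05924) was at 3.07, 4.94 and 5.18 FPKM in Δclr-1 and 0.495, 0.207 and 1.44 in Δclr-2, against 0.696, 1.04 and 1.30 in starved wild type, while wild type on Avicel held 4211, 2101 and 2718. It was called higher in Δclr-1 (1.41 ± 0.33, adjusted p = 0.0258 by limma) and was not called in Δclr-2 (-0.28 ± 0.33); the difference between the strains, 1.70 ± 0.33, was not called either (adjusted p = 0.0839).

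Genes of pentose catabolism, which takes up the xylose that xylanases release, were also higher. Of 5 genes tested 3 were called higher and 0 lower in each strain as in their mean, and the list's median log2 change was 2.65. Among all genes 1.46% were called higher and 1.12% lower in the mean. The xylose reductase gene xr (NCU08384, also xyr-1; chromosome I, 5518643 to 5521403), whose enzyme makes the first step of xylose use, was at 2510.2, 954 and 1088 FPKM in Δclr-1 and 2587, 752 and 836 in Δclr-2, against 8.49, 9.97 and 11.6 in starved wild type. Every mutant library was above every starved one (log2 change 6.86 ± 0.50, adjusted p = 5.92e-07), and replicate 1 was the highest in each mutant. The xylulokinase gene xyk-1 (NCU11353) was at 354, 167 and 173 FPKM in Δclr-1 and 333, 139 and 134 in Δclr-2, against 39.9, 25.96 and 29.04 in starved wild type (2.65 ± 0.43, adjusted p = 0.00168), again with replicate 1 highest in both mutants. NCU00891 rose by 3.29 ± 0.38. NCU00643 and NCU09041, which the list gives to L-arabinose use, were not called, at -0.06 and 0.46.

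Some sugar transporter genes were also higher. Of 3 genes in the cellodextrin transporter list, all 3 were called higher in the mean and in Δclr-2, and 2 in Δclr-1, with a median log2 change of 2.76. The share of all genes called higher was 1.46% in the mean, 1.35% in Δclr-2 and 1.32% in Δclr-1. The cdt-2 gene (NCU08114; chromosome I, 318873 to 321079), for a transporter of cellodextrins and xylodextrins, was at 2322, 1402 and 1496 FPKM in Δclr-1 and 5253, 2816 and 3184 in Δclr-2, against 92.5, 84.4 and 94.6 in starved wild type (4.76 ± 0.28, adjusted p = 3.37e-08). For cdt-1 (NCU00801), the other main cellodextrin transporter gene, the values were 86.7, 65.0 and 62.9 FPKM in Δclr-1 and 158, 219 and 208 in Δclr-2, against 29.3, 80.6 and 36.2 in starved wild type. Its Δclr-1 libraries overlapped the starved ones and its Δclr-2 libraries did not, and only Δclr-2 was called (2.10 ± 0.38, adjusted p = 0.00490; Δclr-1 0.67 ± 0.38), while the difference between the strains was not called (-1.43 ± 0.38, adjusted p = 0.767). Its call in the mean (1.39 ± 0.32) was lost without starved replicate 1 (1.10) or 3 (1.25). The third, NCU05853, was at 1014, 1473 and 1450.2 FPKM in Δclr-1 and 2828, 2862 and 3031 in Δclr-2, against 268, 219.7 and 391 in starved wild type, with no overlap (2.76 ± 0.38). Of 10 hexose and pentose transporters 3 were called higher in each of the 3 comparisons, with a median log2 change of 0.95 in the mean. The high-affinity glucose transporter gene hgt-1 (NCU10021) was at 1148, 837 and 733 FPKM in Δclr-1 and 1042, 1126 and 984 in Δclr-2, against 455, 505 and 376 in starved wild type (1.13 ± 0.15, adjusted p = 0.000268). The other 2 called were NCU06138 (4.69 ± 0.43) and NCU04537 (1.58 ± 0.27).

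**Figure D2:**
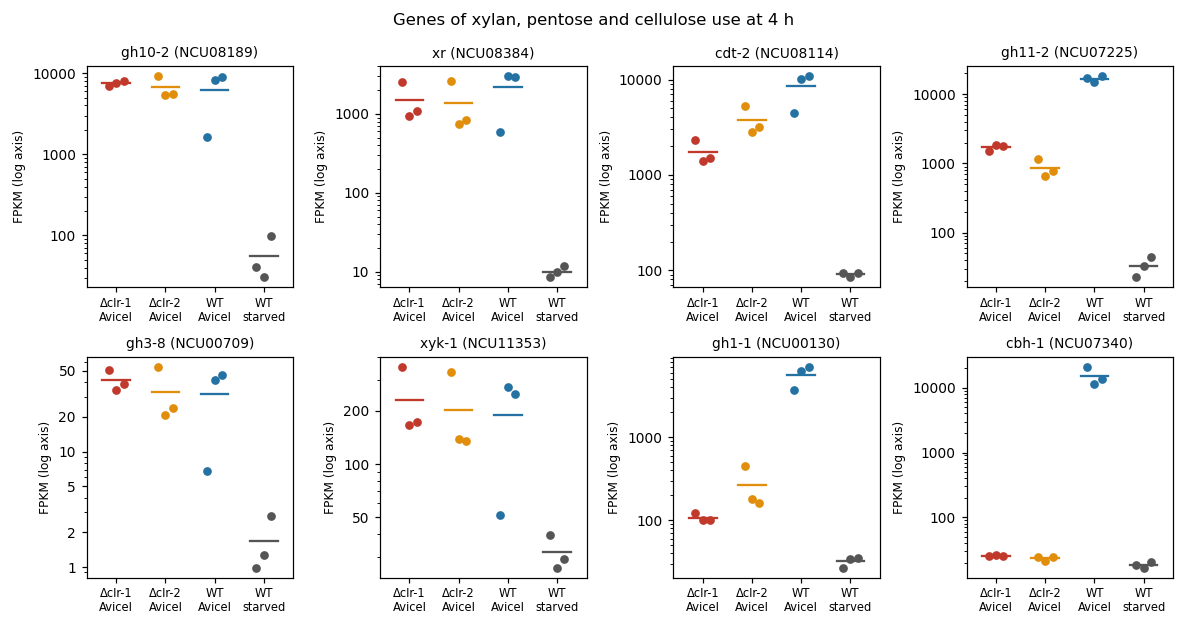
Each panel gives 1 gene, with its FPKM in each library on a log axis as points and the group mean as a bar, for Δclr-1 on Avicel, Δclr-2 on Avicel, wild type on Avicel and starved wild type (3 libraries each). In the mutants gh10-2, gh3-8 and xyk-1 reach the range of wild type on Avicel, and xr does so only through its shallow replicate 1. The gh11-2 and gh1-1 genes lie between the wild type groups, with log2 differences of -3.80 and -5.09 from wild type on Avicel. The cdt-2 gene lies between the wild type groups or overlaps the Avicel one. The cbh-1 gene lies near the starved libraries at 21.5 to 25.9 FPKM.

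Most cellulase genes were not among the genes called higher. Of 12 cellulose-degrading enzymes tested 2 were called higher in the mean (gh1-1 and gh5-1) and 0 lower, with a median log2 change of 0.23, against 10 higher and a median of 6.13 in wild type on Avicel. The share of all genes called higher was 1.46% in the mean and 3.02% in wild type on Avicel. The cellobiohydrolase gene cbh-1 (NCU07340) was at 25.8, 25.9 and 25.3 FPKM in Δclr-1 and 24.4, 21.5 and 24.5 in Δclr-2, against 18.8, 16.8 and 20.6 in starved wild type. The 6 mutant libraries were all slightly above the 3 starved ones, as were those of 6.64% of all genes tested, and the change of 0.38 ± 0.23 was not called (adjusted p = 0.347; 95% interval of the fit -0.10 to 0.86). The second cellobiohydrolase gene, gh6-2, had a log2 change of 0.05 ± 0.25 (not called), and its libraries overlapped. Of 9 genes for lytic polysaccharide monooxygenases (LPMOs), which cut cellulose by oxidation, and cellobiose dehydrogenase, their electron donor, 0 were called in either direction and in either strain, with log2 changes from -0.13 to 0.64 in the mean, while all 9 were called higher in wild type on Avicel.

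The exceptions among the cellulose genes were the β-glucosidase genes gh1-1 and gh3-3, whose enzymes split cellobiose to glucose, and 2 enzyme genes at low levels. A further β-glucosidase gene, gh3-4 (NCU04952), was called in neither strain. It was called lower in the mutants than in wild type on Avicel (-2.61, adjusted p = 0.00323 by limma). The intracellular β-glucosidase gene gh1-1 (NCU00130) was at 121, 100.0 and 100.0 FPKM in Δclr-1 and 453, 179.9 and 159.9 in Δclr-2, against 26.9, 34.5 and 34.7 in starved wild type. No mutant library overlapped a starved one (2.28 ± 0.29, adjusted p = 0.000196), and each Δclr-2 library was above each Δclr-1 library, a difference of -1.14 ± 0.34 that was not called. The gh3-3 gene (NCU08755) was at 71.4, 66.3 and 66.6 FPKM in Δclr-1 and 522, 255 and 228 in Δclr-2, against 75.3, 41.7 and 74.2 in starved wild type. It was called in Δclr-2 alone (2.32 ± 0.43, adjusted p = 0.00619), and the difference between the strains of -2.18 ± 0.43 was not called (adjusted p = 0.0839). The endoglucanase gene gh5-1 was called in Δclr-1 (1.77 ± 0.33) and gh6-3 in Δclr-2 (1.42 ± 0.28). They reached at most 12.2 FPKM (gh5-1) and 46.2 (gh6-3) in a mutant library, against 3281 to 5251 (gh5-1) and 3537 to 7245 (gh6-3) in wild type on Avicel.

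Among the regulators, xlr-1 (NCU06971), the xylanase activator gene, was at 52.7, 63.0 and 63.1 FPKM in Δclr-1 and 79.2, 75.6 and 85.3 in Δclr-2, against 55.7, 53.8 and 58.9 in starved wild type. The Δclr-2 libraries were above the starved ones and the Δclr-1 libraries overlapped them, and no change was called (0.29 ± 0.15 in the mean, adjusted p = 0.268), while wild type on Avicel was called higher (1.46). Of 9 regulators tested 0 were called in the mean; NCU05846, a member by background knowledge, was called in Δclr-2 (1.42 ± 0.20, adjusted p = 0.000530) and not in Δclr-1 (0.38 ± 0.20).

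**Figure D3:**
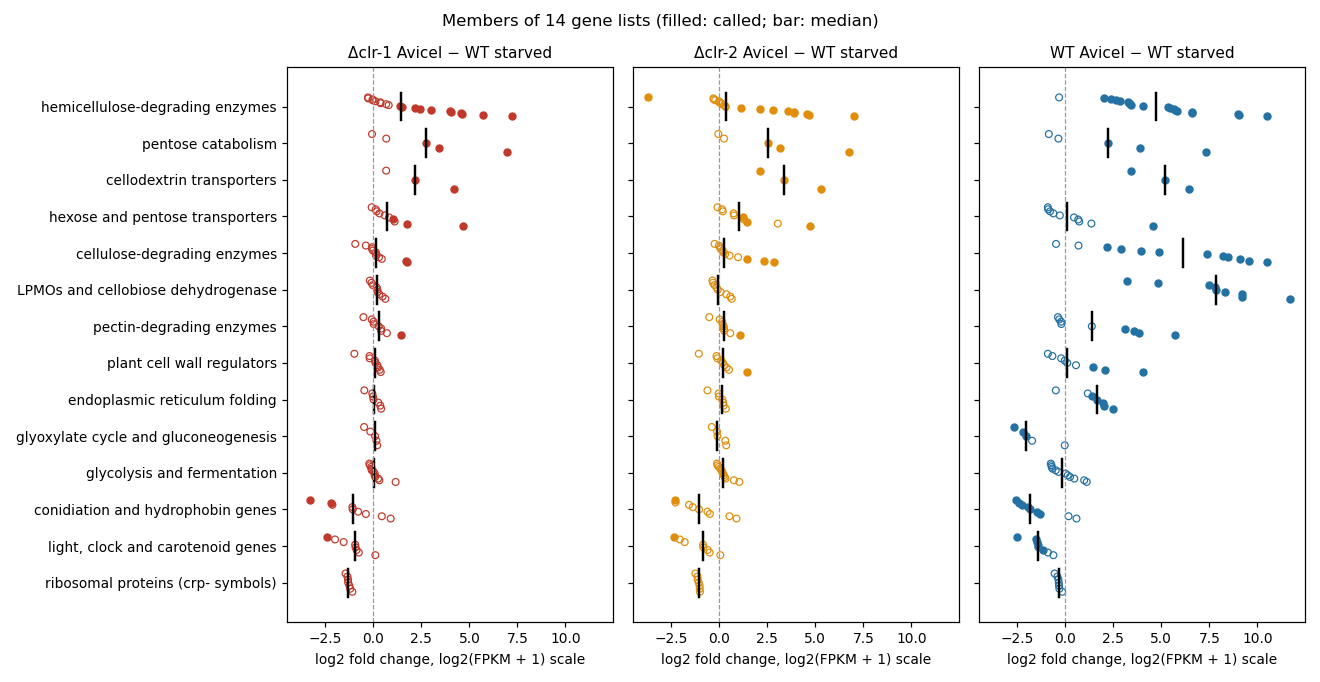
Log2 fold changes of the members of 14 lists, 1 point per gene, for Δclr-1 on Avicel, Δclr-2 on Avicel and wild type on Avicel, each minus the same 3 starved wild type libraries. Filled points were called, open points were not, and black bars are list medians. The hemicellulose list runs from -0.28 to 7.22 in Δclr-1 and from -3.70 to 7.001 in Δclr-2, and the LPMO, folding and glyoxylate lists have 0 genes called in either mutant.

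How far the mutants' values lay from wild type on Avicel was tested as well. The shared shift of all genes has to be read beside each value: limma called 647 genes (7.82%), 442 higher (5.35%) and 205 lower (2.48%) in the mutants, with the median gene at 0.35, whereas rescaling left 121 up and 325 down. The shallow replicate 1 of wild type on Avicel lay below the other 2 libraries for many of these genes, so each value is also given without it. The gh10-2 gene differed from wild type on Avicel by 0.50 (95% interval -0.57 to 1.57), and by -0.30 (-1.21 to 0.61) without that library. For xyk-1 the differences were 0.40 (-0.53 to 1.32) and -0.38 (-1.06 to 0.31), and for gh3-8 they were 0.53 (-0.45 to 1.51) and -0.31 (-0.997 to 0.37). None of these was called, and the intervals leave room for differences of about the size of the call threshold. The xr gene was not called with all libraries (-0.45, adjusted p = 0.479) and was called lower without that library (-1.21 ± 0.44, adjusted p = 0.0474). The same held for NCU01900 (-0.86 with and -1.60 without that library), NCU00891 (-0.61 and -1.22) and NCU05853 (-0.65 and -1.35). The gh11-2 gene was called lower both ways, at -3.80 and -3.78, with 17155, 15121 and 18032 FPKM in wild type on Avicel, as was cdt-2, at -1.67 and -2.08. Of the 20 hemicellulose-degrading enzymes 14 were called lower than in wild type on Avicel and 0 higher, with and without that library. Of the 12 cellulose-degrading enzymes 10 were lower, and of the 9 LPMO and cellobiose dehydrogenase genes 9.

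Several of the largest increases were outside the lists. NCU05068 (chromosome VI, 3840490 to 3842149) was at 202, 598 and 577 FPKM in Δclr-1 and 309, 491 and 509 in Δclr-2, against 7.74, 9.11 and 10.6 in starved wild type (5.38 ± 0.30, adjusted p = 2.40e-08). It was at 289.9, 375 and 431 FPKM in wild type on Avicel, a range that the mutant libraries overlap. NCU00292 (4.96 ± 0.61) and NCU06143 (4.49 ± 0.54) also rose, with no overlap between mutant and starved libraries. NCU04169 (4.85 ± 0.91) rose as well, although its starved libraries ran from 2.81 to 201 FPKM and the highest of them was replicate 2, which stands apart. Its change was 3.22 without starved replicate 1 and 6.09 without starved replicate 2, and it was called both ways. The annotation used gives these 4 genes no symbol.

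Many genes called higher lay next to each other. Of the 121 higher genes 39 (32.2%) had a directly adjacent gene that was also called higher, whereas 2.23% of all tested genes had such a neighbour. They formed 17 runs, the longest of 4 genes. Runs included gh10-2, xr and NCU05068, whose loci overlap a neighbouring gene. Reads of 1 gene may there count for the next, and how many of the 39 lie in overlapping loci was not counted. A run on chromosome IV held NCU10110, NCU04401, NCU04400 and NCU10107, with log2 changes of 2.98, 3.88, 3.53 and 3.05 in the mutants and 3.20, 4.76, 3.65 and 3.42 in wild type on Avicel. A second, on chromosome V, held NCU04167, NCU04168, NCU04169 and NCU04170. In it NCU04170 was at 68.4, 78.2 and 69.2 FPKM in Δclr-1 and 64.2, 89.9 and 84.4 in Δclr-2, against 5.63, 18.2 and 10.6 in starved wild type, and 15.4, 42.4 and 38.7 in wild type on Avicel. All 6 mutant libraries were above the starved libraries, as for 6.64% of all genes tested, and above wild type on Avicel, as for 36.5%, and NCU04170 and NCU04167 were called higher than in wild type on Avicel (1.32, adjusted p = 0.00454, and 1.34, adjusted p = 0.00315). Without replicate 1 of wild type on Avicel NCU04167 was still called (1.17) and NCU04170 was not (0.88). In a run of 3 on chromosome V (NCU07737, NCU07736 and NCU09823), NCU09823 was at 108, 106 and 103 FPKM in Δclr-1 and 85.5, 99.3 and 84.6 in Δclr-2, against 17.8, 25.7 and 24.2 in starved wild type (2.08 ± 0.19) and 27.4, 48.5 and 47.0 in wild type on Avicel (1.27 ± 0.19 higher in the mutants, adjusted p = 0.000207; 1.01 without that library). The runs were picked out after their values were seen.

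Some genes of conidia, light response and carotenoid synthesis were lower in the mutants on Avicel than in starved wild type. Of 9 conidiation and hydrophobin genes 3 were called lower in the mean and 0 higher, beside 1.12% of all genes called lower; Δclr-1 had 2 of them lower and Δclr-2 had 1. The median log2 change was -1.07 in the mutants and -1.84 in wild type on Avicel, where 7 were called lower. The eas gene (NCU08457; chromosome II, 3570905 to 3572798), for the hydrophobin that coats conidia, was at 884, 619 and 878 FPKM in Δclr-1 and 1401, 1223 and 2114 in Δclr-2, against 14372, 5975 and 5087 in starved wild type. The groups did not overlap (-2.79 ± 0.40, adjusted p = 0.000457), and wild type on Avicel, at 1739.7, 1206 and 1002, was in the mutants' range. The conidiation gene con-6 (NCU08769) was at 232, 115 and 164 FPKM in Δclr-1 and 266, 203 and 293 in Δclr-2, against 367, 1115 and 1028 in starved wild type (-1.88 ± 0.36, adjusted p = 0.00560). The third gene called was ccg-14 (-2.21 ± 0.51). In bulk RNA, fewer cells of a type and less RNA per cell cannot be told apart. All 6 marker genes of conidia and aerial hyphae (eas, con-6, con-8, con-10, fl and cat-1) were detected in every library, and they summed to 1506 to 1874 FPKM in Δclr-1, 2052 to 3216 in Δclr-2, 1488 to 2462 in wild type on Avicel and 8257 to 15801 in starved wild type. The sum is mostly eas. The other 4 markers without eas and con-6 summed to 757.8 to 824 FPKM in Δclr-1, 626 to 809 in Δclr-2, 385 to 439 in wild type on Avicel and 1062 to 2142 in starved wild type. None of these 4 was called, con-8 (-1.07) and con-10 (-1.23) lying below the starved libraries in all 6 mutant libraries and fl (-0.71) and cat-1 (-0.32) overlapping them. The part of such cells in the lower genes was not tested.

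Of 8 light, clock and carotenoid genes 3 were called lower in the mean and 0 higher, beside 1.12% and 1.46% of all genes. The list's median log2 change was -0.89 in the mutants and -1.42 in wild type on Avicel, where 5 were called lower. The cryptochrome gene cry (NCU00582) was at 18.7, 13.5 and 14.6 FPKM in Δclr-1 and 19.9, 13.6 and 15.3 in Δclr-2, against 34.0, 98.3 and 186 in starved wild type (-2.37 ± 0.45, adjusted p = 0.00482). The carotenoid genes al-1 (phytoene desaturase) and al-2 (phytoene synthase) were called lower in the mean (-2.02 ± 0.49 and -1.67 ± 0.46) and in neither strain alone. For both, starved replicate 1 overlapped the mutants: al-1 was at 95.8, 64.1 and 64.6 FPKM in Δclr-1 and 74.1, 63.5 and 74.3 in Δclr-2, against 82.4, 423 and 735 in starved wild type. The starved libraries spread more widely than the mutant ones for both genes.

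**Figure D4:**
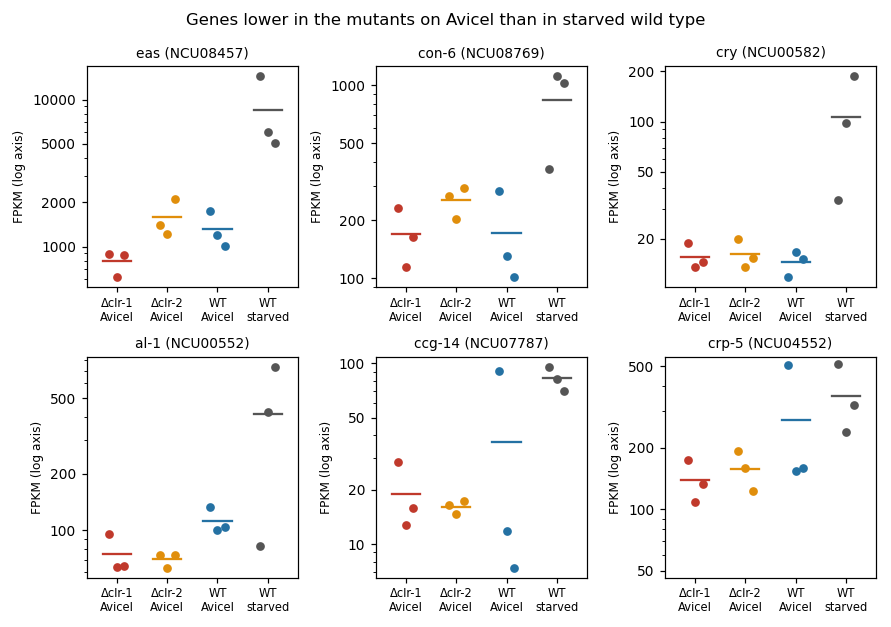
FPKM of 6 genes in each library on a log axis, as points with the group mean as a bar, for Δclr-1 on Avicel, Δclr-2 on Avicel, wild type on Avicel and starved wild type. For eas, con-6, cry, ccg-14 and crp-5 all 6 mutant libraries lie below all 3 starved libraries, and for al-1 starved replicate 1, at 82.4 FPKM, lies among the mutants.

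The largest decrease was in a pair of overlapping genes on chromosome VI, NCU09968 (309546 to 315476) and NCU09969 (314113 to 320071). NCU09968 was at 10.4 FPKM in Δclr-1 replicate 1 and listed at 0 in replicates 2 and 3, and at 0.0124, 0 and 0 in Δclr-2, against 27.0, 26.2 and 25.3 in starved wild type and 15.6, 21.7 and 21.5 in wild type on Avicel. NCU09969 was at 3.02 FPKM in Δclr-1 replicate 1 and listed at 0 in the other 5 mutant libraries, against 7.54, 7.90 and 9.37 in starved wild type. Both wild type groups held these transcripts and 5 of the 6 mutant libraries had next to none, so no fold is given. Δclr-1 replicate 1 held part of the wild type level, and whether it holds RNA of another strain was not tested, which limits what its values say of Δclr-1. Without it limma called 112 genes higher and 59 lower in Δclr-1 and 129 higher and 115 lower in the mean. Of the other genes with the largest decreases, NCU00859 fell by 2.05 ± 0.45 on the log2 scale and NCU05189 by 1.94 ± 0.25, and NCU00849, NCU05818, NCU04285 and NCU01109 by 1.495 to 1.761. NCU00849, NCU05818 and NCU04285 were at most at 10.2 FPKM in every mutant and starved library, and NCU00859, at 393, 62.6 and 189.7 FPKM in starved wild type, was not called without starved replicate 1 (-1.44, adjusted p = 0.0806) or replicate 3 (-1.96, adjusted p = 0.0627).

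The 7 ribosomal protein genes picked by their symbol had lower values in the mutants, mostly without a call. The reference annotation gives a symbol to 1118 of 9757 genes, and ribosomal protein genes under other symbols or none were not counted. All 7 genes whose symbol starts with crp- had log2 changes between -1.35 and -1.05 in the mean, with a median of -1.17, and their mutant libraries lay below the starved libraries in 7 of 7, as did those of 10.5% of all genes tested. Of these 7 only crp-5 was called by limma (-1.22 ± 0.35, adjusted p = 0.0485). It was at 174, 109 and 133 FPKM in Δclr-1 and 192, 158 and 123 in Δclr-2, against 514, 237 and 321 in starved wild type. After rescaling 0 of the 7 were called. Their median against wild type on Avicel was -0.83, and -0.26 without its replicate 1. NCU04553 (ubi::crp-6) lies next to crp-5 and is outside these 7 because its symbol does not start with crp-. It was also called lower in the mean. The 29 complex I subunit genes (symbols starting with nuo) had a median of -0.18, with 0 called.

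Lists that changed in wild type on Avicel did not all change in the mutants. Of 7 endoplasmic reticulum folding genes 0 were called in either mutant, with a median of 0.08 in the mean, against 5 higher and a median of 1.64 in wild type on Avicel. The chaperone gene grp78 was at 551, 386 and 391.95 FPKM in Δclr-1 and 594, 358 and 344 in Δclr-2, against 303, 382 and 309.6 in starved wild type, ranges that overlap. Of 5 glyoxylate and gluconeogenesis genes 0 were called, against 3 lower in wild type on Avicel. The isocitrate lyase gene acu-3 was at 157, 199 and 148 FPKM in Δclr-1 and 69.7, 141 and 148 in Δclr-2, against 255, 115 and 112 in starved wild type, while wild type on Avicel was at 25.1, 26.9 and 17.1. Also with 0 called in the mean were glycolysis and fermentation (12 genes), the osmosensing kinase cascade (6), chitin and glucan synthases (8), the quinate cluster (6), starch and sucrose degradation (5), oxidative stress (5) and alternative oxidase with its regulators (3). Of 9 pectin-degrading enzymes NCU10045 was called higher (1.24 ± 0.22), and of 7 nitrogen genes the nitrite reductase gene nit-6 (1.25 ± 0.27). In the mean of the mutants 1.46% of all genes were called higher. A call that misses the threshold does not show that a gene is unchanged.

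Between the strains limma called 8 of 8269 genes (0.0967%), 2 higher (0.0242%) and 6 lower (0.0726%) in Δclr-1 than in Δclr-2, with 110 at an unadjusted p under 0.05. NCU08412, in the hemicellulose list, moved in opposite directions. It was at 129.9, 142 and 129 FPKM in Δclr-1 and 1.32, 1.54 and 1.08 in Δclr-2, against 15.6, 42.8 and 35.7 in starved wild type, and each mutant differed from the starved level, by 2.17 ± 0.26 in Δclr-1 (adjusted p = 0.000127) and by -3.70 ± 0.26 in Δclr-2 (adjusted p = 3.52e-07). NCU08398 was at 12.5, 25.0 and 24.3 FPKM in Δclr-1 and 4.52, 5.03 and 5.45 in Δclr-2, with the starved libraries, at 10.5, 12.9 and 14.4, between them or overlapping Δclr-1. NCU09689 was at 14.5, 17.2 and 17.9 FPKM in Δclr-1, a range shared with starved wild type (15.4, 13.5 and 20.02), and at 212, 125 and 155 in Δclr-2, all above it (3.24 ± 0.22 in Δclr-2, adjusted p = 3.52e-07). NCU08756 and NCU08113 showed the same order at lower levels, with 7.60 to 8.70 and 4.87 to 5.80 FPKM in Δclr-2 and at most 2.30 in the starved libraries. For all 8 genes every mutant library lay below every library of wild type on Avicel, as was the case for 4.9% of all genes tested.

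**Figure D5:**
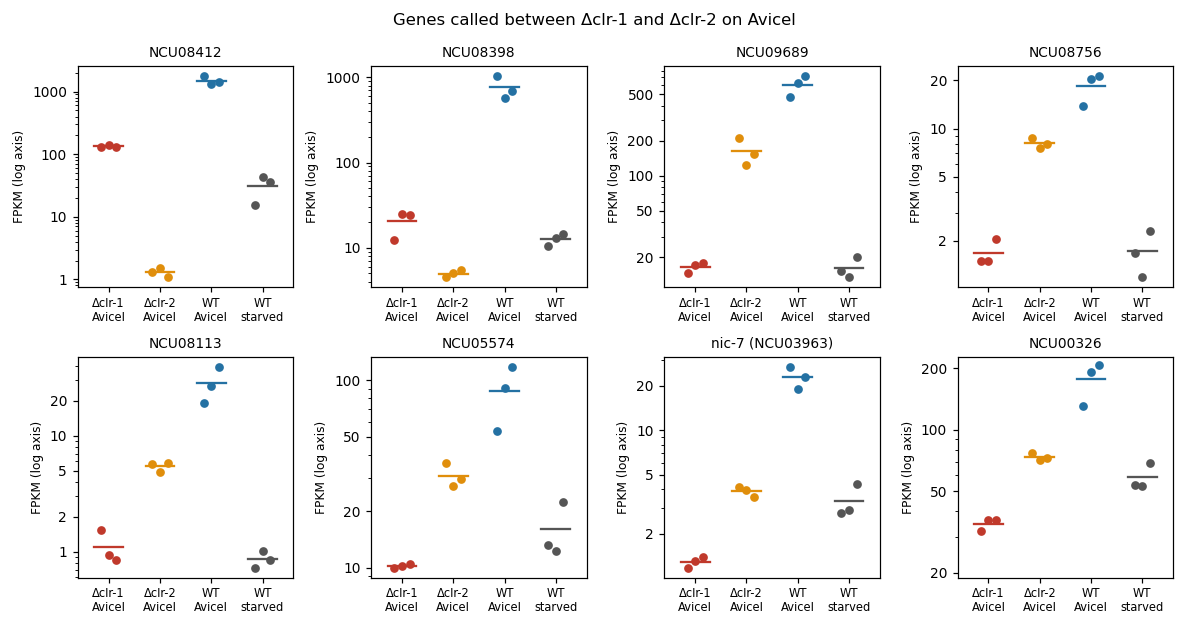
FPKM of the 8 genes called between Δclr-1 and Δclr-2 in each library on a log axis, as points with the group mean as a bar, with wild type on Avicel and starved wild type beside them. NCU08412 is above starved wild type in Δclr-1 and below it in Δclr-2, and in NCU09689, NCU08756 and NCU08113 the Δclr-2 libraries lie above the starved ones while Δclr-1 overlaps them.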

How the data were processed

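Per the labels, total RNA of mycelia was sequenced from biological replicates. The authors deposited FPKM with bounds for 9758 genes per library; HISAT2 2.0.5 and Cufflinks 2.2.1 appear, with no role stated, per the submitters' processing notes. Loci follow build NC12; annotation release, filters and strandedness are stated in no source used here. Depth was implied from the bounds, assuming Poisson counting, since no counts were used. Genes with a status other than OK in a 4 h library (9) were left out.

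The 8269 genes averaging 1 FPKM or more across the 18 libraries at 4 h entered limma 3.58.1 (R 4.3.3; trend, 1 term for each of 6 groups) as log2(FPKM + 1), with Benjamini-Hochberg adjustment over all of them; the fold scale understates changes of low genes. The 6 groups were Δclr-1, Δclr-2 and wild type on Avicel, and wild type, Δclr-3 and Pccg1-clr-2 without carbon. Mean correlations of a library with its own group were 0.990 to 0.992 in Δclr-3 and 0.941 to 0.959 in starved wild type. Fitting only the 9 libraries compared gave 224 calls for the mean of the mutants against starved wild type. Called genes had an adjusted p under 0.05 and an absolute log2 change of at least 1. The procedure was tested on simulated data that gave each gene the same spread in all libraries. That test does not show how it handles groups of unequal spread or libraries that stand apart. The members, lists (22, of which 20 hold 159 identifiers, 112 with a reference symbol) and named genes were chosen with earlier results of these data known. Named genes are the 10 largest changes each way called in each strain without overlap of libraries, list members called in a strain, and genes called between strains; other genes were named after their values were seen. No set test was run. Same-numbered libraries deviated together weakly for Δclr-2 and starved wild type (r = 0.120, 0.164 and 0.123) and more for the 2 mutants (0.512, 0.281 and 0.433). They did not for Δclr-1 and starved wild type (-0.138, -0.396 and 0.408). Differently numbered libraries ran from -0.492 to 0.442 for the 2 mutants and from -0.470 to 0.437 for Δclr-1 and starved wild type. For Δclr-2 and starved wild type they ran from -0.131 to -0.023.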

Additional observations from a re-analysis of the deposited data

Results flagged for a closer look

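The 8 genes below were picked out because the test of the difference between Δclr-1 and Δclr-2, both on Avicel, called them; as log2 fold changes of Δclr-1 over Δclr-2 they were 5.87 for NCU08412, 1.79 for NCU08398, -3.20 for NCU09689, -1.77 for NCU08756, -1.62 for NCU08113, -1.51 for NCU05574, -1.09 for NCU03963 (nic-7) and -1.06 for NCU00326. NCU08412 and NCU09689 were called under all 20 alternatives, and NCU08756 and NCU08113 under all but the pseudocount of 5 FPKM (-0.97 and -0.77). NCU05574 lost its call in 10 of them, NCU03963 in 12, NCU00326 in 8 and NCU08398 in 5. For NCU03963 the 3 Δclr-1 libraries held 1.18, 1.30 and 1.39 FPKM and the 3 Δclr-2 libraries 4.11, 3.95 and 3.55, against 2.76, 2.90 and 4.30 in starved wild type. Groups of 3 libraries are too small for a test of single outlying values.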

How the results depend on the processing

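For the mean of the mutants against starved wild type, leaving out 1 library at a time gave 150 to 284 calls (106 to 147 higher, 43 to 137 lower). For Δclr-1 the ranges were 92 to 225 (77 to 129, 15 to 96) and for Δclr-2 95 to 201 (77 to 122, 18 to 79). Δclr-1 lower calls were 15 without its replicate 2, 25 without its replicate 3, 96 without starved replicate 2 and 29 without starved replicate 3; all its calls were 92 and 104 without its replicates 2 and 3. Δclr-2 lower calls were 18 without its replicate 2 and 54 and 79 without starved replicates 1 and 2. Between the strains the range was 4 to 8, with 4 calls when Δclr-1 lost replicate 2 or 3, or Δclr-2 lost replicate 1. It was 752 to 1041 for wild type on Avicel against starved wild type and 597 to 739 for the mutants against wild type on Avicel.

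With the replicate block, Δclr-1 had 249 calls (133 lower), Δclr-2 233 (107 lower) and the mean 151 lower calls; the block changed no call of a named gene and gave 9 calls between the strains. Array weights gave 385 calls for Δclr-1 (164 higher, 221 lower), 349 for Δclr-2 (192 lower), 337 for the mean (185 lower) and 52 between the strains. Without wild type Avicel replicate 1 in the fit there were 287 for Δclr-1 (156 lower), 242 for Δclr-2 (108 lower) and 166 lower for the mean; the choice to leave it out was made after seeing the data, as was leaving out the farthest library of each group, which gave 62 lower for Δclr-2 and 155 for the mean. With adjusted p alone there were 346 for Δclr-1 (190 lower), 66 lower for Δclr-2, 567 for the mean (250 higher, 317 lower), 3383 for wild type and 3854 for the mutants against wild type on Avicel. A pseudocount of 5 FPKM gave 36 lower for Δclr-1, 2 between the strains, 570 for wild type and 391 for the mutants against wild type on Avicel, and fitting only the 9 libraries gave 5 between the strains. The causes were not tested.

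Of 45 named genes called, 31 kept the call under each alternative that gave a value (20, or 19 for 4 genes that a mean of at least 5 FPKM removes), among them the 10 largest increases and 6 of the 10 largest decreases, and 0 of the 49 named genes reversed. For each strain and their mean, lower calls spread more widely than higher calls when single libraries were left out. Without counts, the depth behind a gene's value is known only through its bounds.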

Other observations

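NCU09968 and NCU09969 were listed at 0 or near it in every mutant library except Δclr-1 replicate 1, which held 10.4 and 3.02 FPKM, part of the wild type level; whether that library holds RNA of another strain was not tested, and its values are to be read with that limit. That library also correlated more closely with Δclr-2 replicate 1 (0.984) than with its own replicates 2 and 3 (0.956 and 0.961); the log2(FPKM + 1) values behind these coefficients are across genes, which are not independent replicates. Its clr-1 level of 1.95 FPKM was near those of its replicates (1.55 and 1.62), and its clr-2 level of 2.55 FPKM was above those of all 3 Δclr-2 libraries. NCU01633, in the transporter list, was at 235, 3.29 and 6.71 FPKM in Δclr-1 and 182, 219.9 and 30.7 in Δclr-2, against 16.9, 9.28 and 11.4 in starved wild type.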
